A study of Mus musculus with 28 samples.

Results

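The 10 genes described here, Pdgfrb, Notch3, Rgs5, Abcc9, Vtn, Anpep, Des, Acta2, Tagln and Myh11, are commonly used as markers of mural cells, the pericytes and smooth muscle cells that wrap the vessels of the brain. They were chosen by symbol, and each was found on exactly 1 row, or transcript cluster, of an array table with 65956 tested transcript clusters. Tissue came from the cortex of mice aged 12 to 15 weeks, of both sexes, either wild type (WT) or labelled as knockout (KO) for Rbm5, which encodes an RNA-binding regulator of splicing. Each genotype was split between sham, which was anaesthesia with no opening of the skull, and controlled cortical impact (CCI), a craniotomy over the left parietal cortex followed by a mechanical impact at 6 m/s to a depth of 1.2 mm. Tissue was taken 48 h later, with 7 animals in each of the 4 groups. The sources used here do not say how the knockout was made or whether it covers all cells. Because sham animals had no craniotomy, the craniotomy and the impact cannot be told apart in any injury comparison. The tissue was bulk cortex, so fewer cells of a type and less RNA per cell cannot be told apart either.

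Pericytes and vascular smooth muscle cells share the platelet-derived growth factor receptor encoded by Pdgfrb, through which endothelial cells recruit them to vessels, and they receive Notch signals through Notch3. Arterial smooth muscle is set apart by its contractile proteins, among them the actin of Acta2, the myosin heavy chain of Myh11 and the actin-binding transgelin of Tagln. Capillary pericytes of the mouse brain carry little of these and are known instead for Rgs5, Abcc9 and Vtn.

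To check the genotype labels, the signal of Rbm5 itself was read on every array. Its log2 signal lay between 10.59 and 10.82 on the wild type arrays and between 9.66 and 9.84 on the knockout arrays, with no overlap. The signal was thus lower in knockout but not gone. Its mean was 9.76 in KO sham and 9.75 in KO CCI, beside 10.78 in WT sham and 10.66 in WT CCI. What the remaining signal stands for was not tested. All values below are log2 signal as deposited, with SD or SE on that scale. The lowest array median was 5.79, and a mean below it was not shown to be above background. Differences were tested with limma over all 65956 transcript clusters, and a gene is said to have risen or fallen where its adjusted p was under 0.05. Levels are not compared between genes, because array rows differ in brightness for the same amount of RNA.

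Promoters of 7 of the 10 genes were in the RefSeq table for GRCm38.p6. Those of Pdgfrb, Tagln and Myh11 were not, so Acta2 alone stands for the contractile genes here. The 250 bases before the start are shown for Acta2, a contractile gene, and for Rgs5 and Vtn, pericyte genes, to set both kinds of mural gene side by side. Capitals mark the CArG box, the element bound by serum response factor, counted where at least 5 of its 6 middle bases were A or T, the sequence TGGGAA, the core read by the Notch partner Rbpj, and GGAATG, read by TEAD factors, each on both strands.
Acta2, chr19:34255374-34255623, minus strand: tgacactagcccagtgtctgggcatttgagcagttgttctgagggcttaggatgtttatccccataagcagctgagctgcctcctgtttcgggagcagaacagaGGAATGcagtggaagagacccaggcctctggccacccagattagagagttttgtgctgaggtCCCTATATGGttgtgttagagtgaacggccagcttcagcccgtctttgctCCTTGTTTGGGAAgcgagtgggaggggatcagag
Rgs5, chr1:169655251-169655500, plus strand: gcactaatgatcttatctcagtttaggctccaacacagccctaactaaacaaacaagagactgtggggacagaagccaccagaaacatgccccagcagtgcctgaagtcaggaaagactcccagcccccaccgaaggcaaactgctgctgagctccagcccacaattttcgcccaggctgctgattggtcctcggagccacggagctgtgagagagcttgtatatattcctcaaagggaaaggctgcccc
Vtn, chr11:78498870-78499119, plus strand: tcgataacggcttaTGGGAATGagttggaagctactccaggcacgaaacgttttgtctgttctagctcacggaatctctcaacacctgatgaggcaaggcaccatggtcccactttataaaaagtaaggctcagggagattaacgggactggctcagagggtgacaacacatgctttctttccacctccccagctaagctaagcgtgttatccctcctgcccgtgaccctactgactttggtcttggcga

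The Acta2 window held 2 CArG matches, which begin 84 and 34 bases before the start. Of all 32851 promoters of this length, 8.59% held at least 1 such match and 0.67% held 2 or more. Acta2 also held TGGGAA, overlapping the second CArG match, and GGAATG. Vtn held TGGGAA and GGAATG in 1 overlapping stretch, Abcc9 likewise, and the windows of Rgs5, Notch3, Anpep and Des held none of the 3 elements. TGGGAA was in 21.6% of all promoters and GGAATG in 12.6%. These matches describe letters only, and no binding was measured.

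The contractile genes did not move together after injury. Tagln, whose product stabilises actin filaments, rose in both genotypes. Acta2 and Myh11 had lower means after injury that were not called in the main fit, though they were under some alternatives. In WT sham, Tagln lay between 6.39 and 7.02 with a median of 6.72, and in WT CCI between 7.26 and 7.93 with a median of 7.52. In KO sham it lay between 6.22 and 6.97 (median 6.71), and in KO CCI between 7.02 and 7.75 (median 7.18). In each genotype all 7 injured arrays lay above all 7 sham arrays. Groups separated in this way, with injury higher, for 4.44% of all transcript clusters in wild type and 3.51% in knockout. The rise in wild type was 1.89-fold (log2 change 0.92, SE 0.12, adjusted p = 1.84e-06), and that in knockout was 1.52-fold (log2 change 0.61, SE 0.12, adjusted p = 0.000598). In knockout the call was lost among arrays with title numbers 1 to 24 (log2 change 0.39, adjusted p = 0.106), while title numbers 25 to 42 alone gave 0.97 (adjusted p = 0.00446). In wild type these runs gave 0.81 (adjusted p = 0.00207) and 1.06 (adjusted p = 0.000941).

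Markers of blood-derived and resident macrophages rose beside Tagln. Of 12 measured genes of monocytes and macrophages, 11 rose in each genotype, and their mean log2 signal lay between 6.22 and 6.38 in WT sham and between 7.53 and 8.24 in WT CCI. In knockout it lay between 6.15 and 6.44 after sham and between 7.40 and 8.15 after injury. Lyz2, a lysozyme of myeloid cells, was 6.74 ± 0.19 (SD, n = 7) in WT sham and 10.42 ± 0.79 in WT CCI. Arrays give no zero, so no marker could be read as absent. Once group means and sex were removed, Tagln followed this list over the 28 arrays with a Pearson r of 0.48. With the run of title numbers removed as well, r was 0.52. The part of these cells in the Tagln result was not tested.

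Acta2, the smooth muscle actin, had the widest spread of the 10 genes in 3 of the 4 groups, with an SD of 0.49 in WT sham, 0.56 in WT CCI and 0.63 in KO sham (n = 7 each), beside 0.25 in KO CCI. It lay between 8.0 and 9.50 in WT sham (median 8.66), between 7.46 and 9.16 in WT CCI (8.50), between 7.70 and 9.46 in KO sham (8.44) and between 7.41 and 8.15 in KO CCI (7.70). Sham and injured arrays overlapped in both genotypes. The log2 change with injury was -0.37 in wild type (95% interval -0.89 to 0.15, adjusted p = 0.395) and -0.63 in knockout (-1.15 to -0.10, adjusted p = 0.0983). Neither was called.

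Myh11, the smooth muscle myosin, also had lower means after injury. Its medians were 6.50 in WT sham and 6.31 in WT CCI, with ranges of 6.33 to 6.68 and 6.13 to 6.67. In knockout they were 6.39 after sham and 6.20 after injury, with ranges of 6.14 to 6.60 and 6.14 to 6.43. The groups overlapped, and the log2 changes of -0.16 (SE 0.072, adjusted p = 0.159) and -0.17 (SE 0.073, adjusted p = 0.126) were not called. Within title numbers 1 to 24 Myh11 fell by 0.30 in knockout (adjusted p = 0.0434), while within 25 to 42 its log2 change was 0.034 (adjusted p = 0.892). Single arrays also changed the call. Without WT CCI replicate 16, whose 6.67 was the highest of its group, Myh11 fell by 0.22 in wild type (adjusted p = 0.0173), and without KO sham replicate 33, whose 6.14 was the lowest of its group, it fell by 0.21 in knockout (adjusted p = 0.0484).

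**Figure D1:**
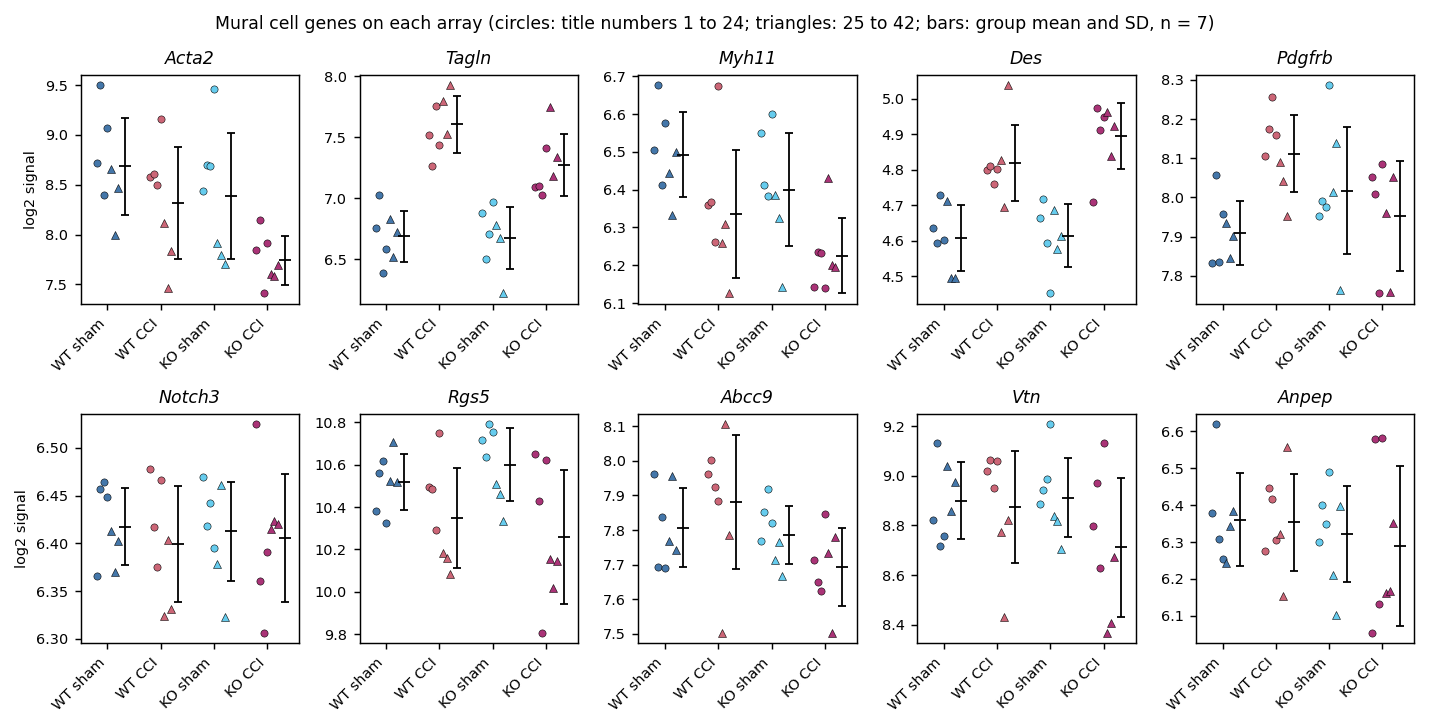
Log2 signal of the 10 genes on each of the 28 arrays by group, with circles for title numbers 1 to 24, triangles for 25 to 42, and bars for the group mean and SD (n = 7); the vertical scale differs between genes. Tagln is the gene whose injured arrays all lie above the sham arrays in both genotypes, and the triangles of Acta2 lie below the circles in WT CCI and KO sham.

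Des, the intermediate filament desmin of muscle and pericytes, rose a little in both genotypes, from a signal that was not shown to be above background. Its range was 4.50 to 4.73 in WT sham (median 4.60) and 4.70 to 5.04 in WT CCI (4.80), and 4.45 to 4.72 in KO sham (4.61) and 4.71 to 4.97 in KO CCI (4.92). In each genotype 6 of 7 injured arrays lay above every sham array. The log2 change was 0.21 in wild type (SE 0.054, 1.16-fold, adjusted p = 0.00638) and 0.29 in knockout (SE 0.055, 1.22-fold, adjusted p = 0.000379). All group means lay below the lowest array median, so neither fold is exact. The call in wild type was lost within each run of title numbers (log2 change 0.15 and 0.29, adjusted p = 0.24 and 0.118), and that in knockout within 25 to 42 (0.30, adjusted p = 0.133).

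Pdgfrb, the growth factor receptor, was higher after injury in wild type. It lay between 7.83 and 8.06 in WT sham (median 7.90) and between 7.95 and 8.26 in WT CCI (8.11), with 5 of 7 injured arrays above every sham array. The rise was 1.15-fold (log2 change 0.20, SE 0.067, adjusted p = 0.0374). The call did not hold when 1 of 8 arrays was left out (from WT sham, replicate 1, 3, 25, 26 or 27; from WT CCI, replicate 14, 15 or 16), with an adjusted p reaching 0.0891. It was lost after centring each array on its median and within each run, although the log2 change was 0.19 after centring (adjusted p = 0.0732), 0.25 within title numbers 1 to 24 (0.11) and 0.13 within 25 to 42 (0.504). In knockout, Pdgfrb lay between 7.76 and 8.29 after sham and between 7.75 and 8.09 after injury, and its log2 change was -0.057 (SE 0.068, adjusted p = 0.663).

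Rgs5, which encodes a brake on G protein signalling, fell in knockout, at the edge of the threshold. It lay between 10.33 and 10.79 in KO sham (median 10.64) and between 9.81 and 10.65 in KO CCI (10.15), and 4 of 7 injured arrays lay below every sham array. The log2 change was -0.33 (SE 0.12, 1.26-fold, adjusted p = 0.0489). The call was lost without any of 19 arrays, namely every WT sham array, WT CCI replicates 13, 14, 15 and 34, KO sham replicates 9, 10, 11 and 12, and KO CCI replicates 23, 40, 41 and 42 (adjusted p up to 0.123). Wild type arrays count here because all groups share the estimate of spread. In wild type Rgs5 lay between 10.32 and 10.71 after sham and between 10.09 and 10.75 after injury (log2 change -0.17, SE 0.12, adjusted p = 0.386).

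The remaining 4 genes were not called in either genotype. Notch3 was the steadiest of the 10, with every array between 6.31 and 6.52, and its log2 changes were -0.018 in wild type (95% interval -0.097 to 0.061) and -0.0031 in knockout (-0.083 to 0.076). Abcc9, the sulphonylurea receptor subunit of the vascular potassium channel gated by ATP, ranged from 7.50 to 8.11, with log2 changes of 0.074 in wild type (adjusted p = 0.576) and -0.098 in knockout (0.433). Vtn, which encodes the adhesion protein vitronectin, ranged from 8.37 to 9.21 and had log2 changes of -0.027 (adjusted p = 0.917) and -0.19 (0.273), and 4 of 7 KO CCI arrays lay below every KO sham array. Anpep, a surface aminopeptidase of pericytes that fibroblasts and myeloid cells also carry, ranged from 6.05 to 6.62 and had log2 changes of -0.0078 (0.97) and -0.036 (0.847).

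In wild type, 3 of 10 genes rose and none fell, where 16.8% of all transcript clusters were called (8.86% higher, 7.96% lower). In knockout, 2 of 10 rose and 1 fell, where 16.7% were called (8.43% higher, 8.27% lower). The median log2 change of the 10 was -0.013 in wild type and -0.077 in knockout, beside -0.023 and 0.012 over all transcript clusters. The list as a whole was not tested.

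**Figure D2:**
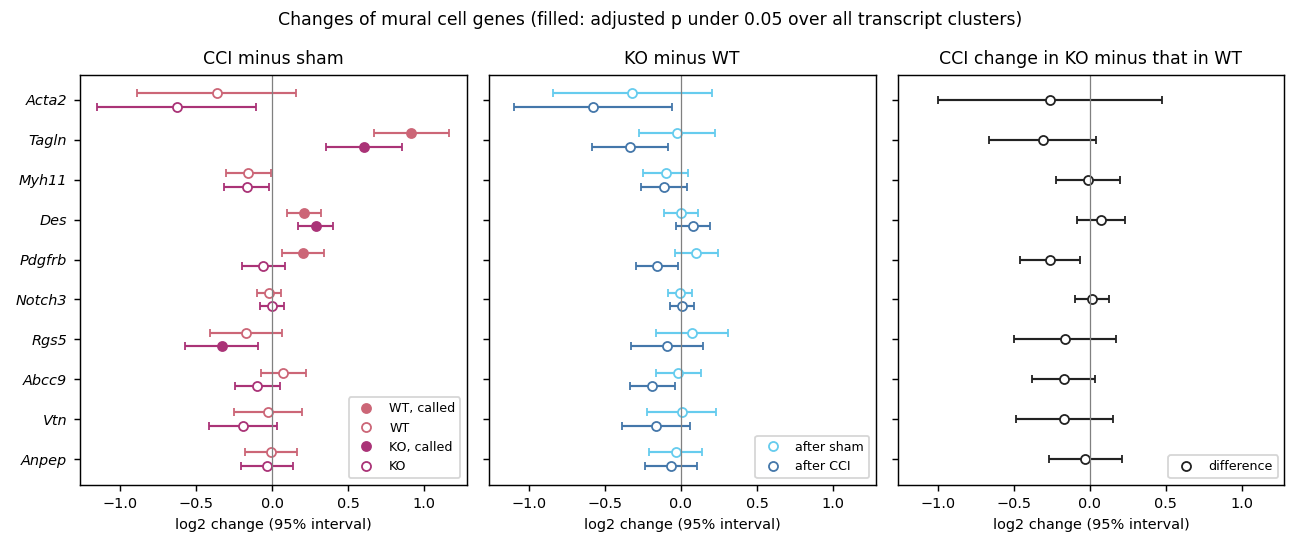
Log2 changes of the 10 genes with 95% intervals for CCI minus sham in each genotype, KO minus WT after each procedure, and the difference between the injury changes; filled points have an adjusted p under 0.05. Filled points are Tagln and Des in both genotypes, Pdgfrb in wild type and Rgs5 in knockout, and no point is filled in the other panels.

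Genotype was compared next, to ask whether the knockout label, with its lower Rbm5 signal, went with a different level of these genes. After sham none of the 10 was called by limma, where 1.28% of transcript clusters were, and none had an unadjusted p under 0.05, where 11.1% did. After injury again none was called, where 0.653% were, although 4 of 10 had an unadjusted p under 0.05, where 9.8% did. These were Tagln (log2 difference, knockout minus wild type, -0.33, SE 0.12, adjusted p = 0.291), Abcc9 (-0.19, SE 0.072, adjusted p = 0.332), Pdgfrb (-0.16, SE 0.067, adjusted p = 0.412) and Acta2 (-0.58, SE 0.25, adjusted p = 0.433). For Tagln, 4 of 7 KO CCI arrays lay below every WT CCI array, and the difference was -0.34 within title numbers 1 to 24 and -0.33 within 25 to 42 (adjusted p = 0.465 and 0.575). For Acta2 it was -0.88 in the earlier run and -0.18 in the later (adjusted p = 0.226 and 0.825). The median difference over the 10 was -0.13 after injury, beside 0.0088 over all transcript clusters.

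Whether injury moved a gene differently in the genotypes was tested directly, and limma called none of the 10 genes and none (0%) of the 65956 transcript clusters (unadjusted p under 0.05 for 1 of 10 and for 6.21%). The gene was Pdgfrb, with a log2 difference of -0.26 (95% interval -0.46 to -0.064, adjusted p = 0.779), so its call in wild type and not in knockout is not shown to be a difference between them. For Tagln the difference was -0.31 (-0.66 to 0.042, adjusted p = 0.821), and for Rgs5 it was -0.16 (-0.50 to 0.17, adjusted p = 0.887). Between females and males limma called none of the 10 (log2 differences from -0.12 to 0.030, none with an unadjusted p under 0.05), where 0.487% of transcript clusters were called and 4.89% had an unadjusted p under 0.05.

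Arrays differed in ways that the groups did not account for. Sample titles carry numbers from 1 to 42, with some numbers absent. They were split here at 25, where the order of the groups starts over, into runs of 1 to 24 and 25 to 42. Each run holds 3 or 4 arrays of every group, and the labels do not call these batches. In a comparison added after the data were seen, with group and sex in the model, Acta2 was lower in the later run by a log2 difference of -0.66 (SE 0.13, adjusted p = 0.0403), a call shared by 0.162% of transcript clusters and by no other of the 10 genes. In KO sham, Acta2 lay between 8.44 and 9.46 in the earlier run and between 7.70 and 7.92 in the later, and in WT CCI between 8.50 and 9.16 and between 7.46 and 8.11, without overlap in either group. In WT sham the runs overlapped (8.39 to 9.50 and 8.0 to 8.66), as they did in KO CCI (7.41 to 8.15 and 7.58 to 7.70). With the run in the model the injury change of Acta2 in knockout was called (-0.63, adjusted p = 0.0158). It was -0.99 (adjusted p = 0.0182) within title numbers 1 to 24 and -0.096 (adjusted p = 0.809) within 25 to 42. In wild type the order was the other way, -0.21 (adjusted p = 0.694) and -0.57 (adjusted p = 0.0452). Rgs5 in wild type was 0.033 (adjusted p = 0.931) in the earlier run and -0.44 (adjusted p = 0.00972) in the later. The differences between runs in these changes were not tested.

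A few arrays stood at the edge of their group for many of the genes. WT sham replicate 2 and KO sham replicate 12 were each highest in their group for the same 6 genes, Pdgfrb, Vtn, Anpep, Acta2, Tagln and Myh11. KO sham replicate 33 was lowest for 8 of 10, all but Anpep and Des, and KO CCI replicate 23 was lowest for 5. Markers of the striatum, which lies beneath the cortex, lay between 6.88 and 7.51 in the mean of 6 genes in WT sham. Their mean lay between 6.97 and 8.20 in KO sham, and reached 9.58 in WT CCI and 9.90 in KO CCI. Of the arrays with high striatum signal, WT CCI replicate 16 (9.45) was the highest of its group for Rgs5, Acta2 and Myh11, and WT CCI replicate 35 (9.58) was the lowest for Vtn, Anpep, Des and Acta2. Without the 7 arrays high in striatum or choroid plexus markers, Tagln kept its call in both genotypes. Myh11 then fell in wild type (log2 change -0.29, adjusted p = 0.0239). Pdgfrb in wild type and Rgs5 in knockout were not called (0.19, adjusted p = 0.251, and -0.33, adjusted p = 0.101). Their log2 changes with all arrays were 0.20 and -0.33. Most arrays left out were injured wild type ones (numbers 13, 14, 16 and 35), while KO sham lost none. KO CCI replicate 23 (striatum mean 8.30) and KO sham replicate 32 (8.20) stayed in. Whether these calls were lost through the smaller number of arrays or through the tissue was not tested.

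How the genes followed each other was described with group means and sex removed, over 28 arrays that share their tissue source and processing. Acta2 was called lower in the later run. Vtn and Rgs5 had log2 differences of -0.21 and -0.20 there that were not called (limma, adjusted p = 0.176 and 0.265). In WT sham the means of Vtn and Rgs5 were higher in the later run. Each r is therefore followed by its value with the run removed as well, an alternative added after the data were seen. Of 45 gene pairs, 34 had a Pearson r above 0, with a median of 0.24, and 28 did with the run removed, with a median of 0.19. Acta2 and Myh11 were the closest in both (r = 0.69, then 0.63). Vtn and Anpep had 0.64 and 0.60, Pdgfrb and Acta2 0.62 and 0.59, and Pdgfrb and Vtn 0.61 and 0.55. The relations among Acta2, Vtn and Rgs5 were smaller once the run was removed. They went from 0.69 to 0.52 for Acta2 and Vtn and from 0.67 to 0.55 for Rgs5 and Vtn. For Acta2 and Rgs5 the value went from 0.53 to 0.30. Tagln moved the other way, from 0.18 to 0.47 with Acta2 and from 0.28 to 0.40 with Myh11, so its distance from the other contractile genes depended on the run.

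**Figure D3:**
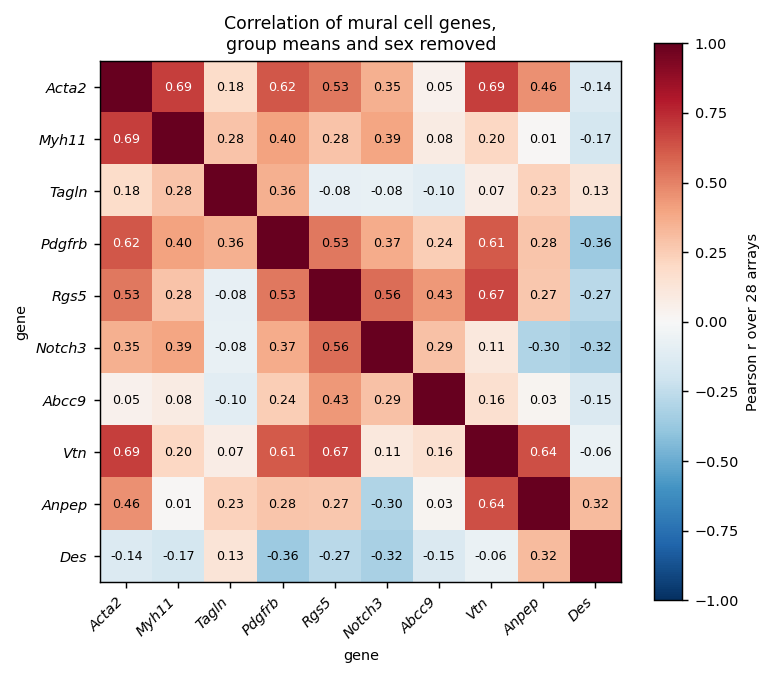
Pearson r between the 10 genes over the 28 arrays after group means and sex were removed, from -1 (blue) to 1 (red). Acta2, Pdgfrb, Rgs5 and Vtn are positively related to each other (0.53 to 0.69) with the run of title numbers left in, and Des has pale or blue squares with most genes.

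The genes also followed markers of other cells, and not those of the vessel wall alone. Anpep followed the mean of 11 genes of leptomeningeal fibroblasts, the cells of the membranes on the brain surface, with r = 0.85. KO CCI replicates 22 and 24 had the highest Anpep of their group (6.58 on each) and the highest fibroblast mean (7.58 and 7.50), and WT sham replicate 2 was highest in both as well (6.62 and 7.46). Anpep followed the monocyte and macrophage list (0.63) and the microglia list (0.62) too. Vtn followed the fibroblast list with r = 0.65, and the microglia (0.64), endothelial (0.60) and astrocyte (0.58) lists about as closely. Pdgfrb had 0.59 with the endothelial list and 0.52 with the astrocyte list. Rgs5 had 0.59 with the neuron list and 0.55 with the endothelial list, and Abcc9 had 0.52 with the endothelial list. Acta2 had 0.52 with the neuron list (0.24 with the run removed). Myh11 had 0.48 with the striatum list (0.58 with the run removed). With the run removed, Rgs5 had 0.45 with the neuron list and 0.46 with the endothelial list. The endothelial values were then 0.51 for Vtn, 0.54 for Pdgfrb and 0.46 for Abcc9. Pdgfrb had 0.47 and Vtn 0.54 with the astrocyte list. The fibroblast values did not fall, at 0.85 for Anpep and 0.67 for Vtn. Anpep then had 0.62 with the monocyte and macrophage list and 0.59 with the microglia list, and Vtn had 0.62 with the microglia list.

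Among 19730 named genes compared with group means and sex removed and the run left in, the closest to the mean of Acta2, Tagln and Myh11 were Timp3, an inhibitor of matrix proteases (r = 0.79), Fmod (0.75) and Kmt2c (0.74). With group means left in, they were Timp3 (0.79), Golim4 (0.74) and Myl9, the regulatory light chain of smooth muscle myosin (0.71). The closest to Rgs5 were Slc19a3, a thiamine transporter (0.80), Rasgrp3 (0.80) and Ptprb, an endothelial phosphatase (0.79). Abcc9 was closest to Flt1, a receptor for vascular endothelial growth factor (0.72), and Nostrin (0.70). Vtn was closest to Sfr1 and Slc22a8, an organic anion transporter (both 0.89), Anpep to Ogn, a matrix gene that is itself on the fibroblast list (0.85), and Pdgfrb to Ttyh2 (0.75) and the laminin gene Lama2 (0.74). Notch3 was closest to Rtel1 (0.72) and Des to Cdca8 (0.68). With group means left in, Des followed Cdca8, a gene of dividing cells, with r = 0.90. Next were Has2 with 0.88 and Cd14, a receptor of myeloid cells, with 0.88. Values with group means left in also hold the differences between the groups.

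Wider lists placed these genes among their partners, and their counts stand beside the 16.8% of all transcript clusters called in wild type and 16.7% in knockout. In bulk cortex, listed genes can also come from cells other than mural cells, and which cells changed was not tested. Of 24 contractile and smooth muscle genes, 4 rose and 1 fell in each genotype, with a median log2 change of -0.018 in wild type and -0.019 in knockout. Besides Tagln, the rises in wild type were led by Ppp1r14a, an inhibitor of myosin phosphatase (1.65-fold, adjusted p = 0.000132), and Cald1, the actin-binding caldesmon (1.17-fold, adjusted p = 0.00271), and Ppp1r12b, a myosin phosphatase subunit, fell by 0.14 (adjusted p = 0.0191). In knockout Cald1 rose 1.18-fold (adjusted p = 0.00188) and Actg2, another smooth muscle actin, 1.13-fold (adjusted p = 0.0213), and Ppp1r12b fell by 0.16 (adjusted p = 0.00718). Ppp1r14a had a log2 change of 0.16 in knockout (adjusted p = 0.477), and the difference between its changes was -0.56 (adjusted p = 0.779). Of 25 measured pericyte genes, 4 rose and 3 fell in wild type, and 2 rose and 5 fell in knockout. S1pr3, a sphingosine phosphate receptor, rose 1.43-fold and 1.40-fold (adjusted p = 7.58e-06 and 2.98e-05). Rgs4, which neurons also express, fell in both genotypes (log2 change -1.03 and -0.97). So did Slc6a20a (-0.53 and -0.52, adjusted p = 0.0179 and 0.0223) and Mfge8 (-0.47 and -0.54, adjusted p = 0.0371 and 0.0157). In knockout Rgs5 fell too, and Atp13a5, a transporter of brain pericytes, fell by 0.29 (adjusted p = 0.00218). Kcnj8, the channel pore that pairs with Abcc9, had log2 changes of 0.12 and 0.12 (adjusted p = 0.148 and 0.174).

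Ligands and receptors of the same pathways were counted as well. Of 6 measured genes of platelet-derived growth factor signalling, Pdgfrb in wild type was the one called, and Pdgfb, the ligand made by endothelial cells, had log2 changes of 0.10 (adjusted p = 0.33) and 0.016 (0.915). Of 15 Notch genes, 3 rose in wild type and 2 in knockout, led by the receptor Notch1 (1.30-fold and 1.21-fold) and the ligand Jag1 (1.21-fold and 1.23-fold), while Heyl, a Notch target of mural cells, had -0.013 and 0.043 (adjusted p = 0.908 and 0.66). Of 13 genes of transforming growth factor beta and angiopoietin signalling, 6 rose in wild type and 7 in knockout, led by Tgfb1 (1.98-fold and 1.77-fold) and its receptor Tgfbr2 (1.75-fold and 1.61-fold). Of 7 measured genes of the vitronectin group, 4 rose in each genotype, among them Fn1, fibronectin (3.15-fold and 2.05-fold), and the integrin subunits Itgb5 (2.10-fold and 1.81-fold) and Itgb1 (1.94-fold and 1.71-fold). Of 7 vascular and ATP-gated potassium channel genes, 2 fell in each genotype, Kcnma1 (log2 change -0.61 and -0.47) and Abcc8 (-0.46 and -0.45), both also neuronal.

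Endothelial cells are the nearest neighbours of mural cells. Of 15 endothelial genes, 8 rose and 1 fell in wild type and 6 rose and 1 fell in knockout, with median log2 changes of 0.42 and 0.22. The mean of the list lay between 8.63 and 8.89 in WT sham and between 9.02 and 9.35 in WT CCI, and between 8.53 and 8.82 in KO sham and between 8.72 and 9.02 in KO CCI. After injury 2 of the 15 were called lower in knockout than in wild type, where 0.428% of all transcript clusters were. They were Cdh5 (log2 difference -0.49, adjusted p = 0.0197) and Pecam1 (-0.34, adjusted p = 0.0228). Eng, the endothelial co-receptor for transforming growth factor beta, was lower too (-0.39, adjusted p = 0.0117). Leptomeningeal fibroblast genes were mixed, with 3 of 11 higher and 3 lower in each genotype. Among the other lists, the genes called between genotypes were Gfap, the filament of reactive astrocytes, which was higher in KO sham than in WT sham (2.57-fold, adjusted p = 0.0263), and Nefl, a neuronal filament, which was lower in knockout after sham (log2 difference -0.35, adjusted p = 0.00379) and after injury (-0.35, adjusted p = 0.00501).

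**Figure D4:**
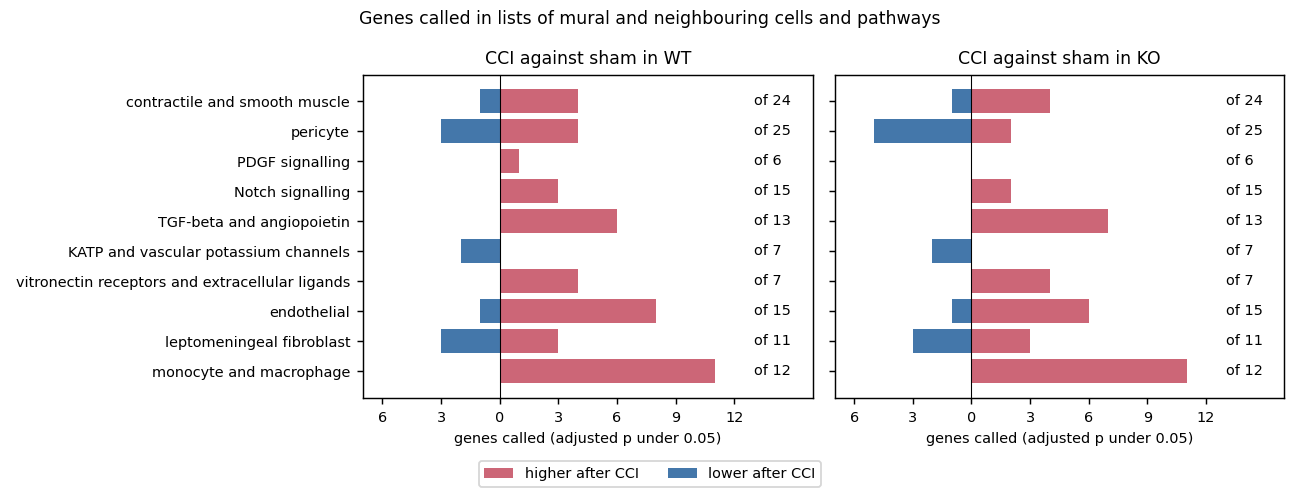
Genes called higher (red, to the right) or lower (blue, to the left) after CCI in each list, for wild type and knockout, with the number of measured genes at the right; lists share some genes. The contractile and pericyte lists have 5 and 7 calls in each genotype, while 11 of 12 monocyte and macrophage genes are called higher.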

How the data were processed

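Total RNA of 28 cortex samples, 100 ng each per the labels, was labelled with biotin and hybridised to MTA 1.0 arrays. Values of 2.21 to 19.93 show the deposited table to be log2 signal, and it was used unchanged. The normalization by the authors, and the software, were not stated in the sources used here. Of 72688 rows, 6732 controls were left out. Names came from the platform annotation, with 1670 rows that list several genes and 94 on another chromosome than their gene left unnamed.

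With limma 3.58.1 (R 4.3.3), lmFit and eBayes fitted the 4 groups and sex on all 28 arrays, with Benjamini-Hochberg adjustment over 65956 transcript clusters, and was tested on simulated data. The labels do not say more of the animals than group and sex, so p-values measure the spread between these samples. Every one of the 10 genes is reported. From the lists, up to 3 called genes with the largest change per direction could be named. Some genes outside that rule (Kcnj8, Pdgfb, Heyl, Atp13a5) were named for their partners or role after their values were seen. Genes with a similar pattern came from the 3 with the highest r. The 10 genes, the lists and the alternatives were chosen with earlier results of these data known. Promoters came from RefSeq, GRCm38.p6, and the motifs were chosen with the results known. Figures were drawn with matplotlib 3.10.9. The number of arrays limits the precision.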

Additional observations from a re-analysis of the deposited data

Results flagged for a closer look

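Of 40 combinations of gene and group, 3 held an array whose gap to its nearest neighbour was large against the range of its group of 7, by Dixon's test at its 95% critical value. Chance gives about 1 in 20 such groups, so this number is near what chance gives. Anpep was 6.62 on WT sham replicate 2, with the next array at 6.38. Des was 5.04 on WT CCI replicate 36, with the next at 4.83. Myh11 was 6.43 on KO CCI replicate 40, with the next at 6.24.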

How the results depend on the processing

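The count of genes called for injury in wild type was 1 of 10 within title numbers 1 to 24, against 3 with all arrays, and in knockout it was 1 of 10 within 25 to 42, against 3. Over all transcript clusters the share called went from 16.8% to 8.95% and from 16.7% to 3.89% with these fewer arrays. Under the other alternatives it stayed between 2 and 4. The genotype, sex and difference counts were 0 under each alternative and with any 1 array left out. Tagln kept its direction throughout, with a log2 change of 0.81 to 1.16 in wild type and 0.39 to 0.97 in knockout, and was not called in knockout within 1 to 24. Rgs5 in knockout was not called after quantile normalization (-0.29, adjusted p = 0.08), with array weights (-0.32, adjusted p = 0.0563) or with only the groups compared (-0.32, adjusted p = 0.103). Myh11 in knockout was called after centring array medians (-0.21, adjusted p = 0.037). Acta2 in knockout was called by limma with the run in the model (-0.63, adjusted p = 0.0158) and within 1 to 24 (-0.99, adjusted p = 0.0182). In wild type Acta2 was called within 25 to 42 (-0.57, adjusted p = 0.0452). Scaling moved the median of all transcript clusters by at most 0.046 in size. Each gene had 1 row, so averaging rows changed nothing and was not run, and Des had no value once dim rows were left out. A change of sign between values that were both not called is not counted as a change. No paired analysis was possible because the title numbers of the groups do not overlap.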
